A study of Homo sapiens with 14 samples.

Results

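The genes described here encode the working parts of the lysosome: its membrane proteins, its hydrolases other than cathepsins, the activators of those enzymes, and the proton pump that acidifies it. A list of 44 genes was used, and a gene was a member if the array held a probe set whose only annotated symbol was that gene. This was so for 42 of the 44 genes, with 90 probe sets, out of 11963 genes in all. GLB1 and ATP6V1F were not analysed here, because their probe sets list a second gene. Each member was read from its probe set with the highest mean over the 14 arrays, and 38 members passed a filter that kept the upper 60% of genes by mean signal.

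RNA came from Kasumi-1, an established acute myeloid leukaemia cell line that carries the t(8;21) fusion gene AML1-ETO (RUNX1-RUNX1T1), and was read 96 h after transfection on single-colour oligonucleotide arrays. An siRNA against the fusion was nucleofected, that is delivered by electric pulse, at 1.5 µM on 3 arrays, beside 2 arrays of an siRNA against firefly luciferase, a gene the cells do not have. The same siRNAs were delivered by lipid reagent at 240 nM on 3 arrays each. A single array came from cells nucleofected with no siRNA, and 2 came from cells that were not transfected at all. Every group is the same 1 cell line carrying the fusion, dose differs with delivery, and nothing in the labels says whether replicates were separate cultures, so that p-values measure the spread between these arrays only.

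Lysosomes degrade proteins, glycans and lipids with acid hydrolases. The pH these enzymes need is made by the vacuolar proton pump, whose cytosolic V1 sector splits ATP and whose membrane V0 sector carries protons. Heavily glycosylated membrane proteins line the inside of the organelle, and the transcription factor TFEB switches on many lysosomal genes through a site built around CACGTG. In myeloid cells the lysosome is close kin to the granules that form as the cells mature.

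Promoter sequences from RefSeq (GRCh38.p14), from 250 bases before to 50 bases after the outermost start that the promoter table lists for each gene, were matched by symbol for 31 of the 44 genes. The first 4 windows below belong to genes whose signal rose with AML1-ETO siRNA by nucleofection, and the last 2 show what windows rich in the TFEB-type core look like among genes that did not pass there. LAMP2, the fifth gene that rose, had no entry. All 6 printed windows lie at the annotated end of their gene, as do 26 of the 29 that could be compared, while those of IDUA, TFEB and SCARB2 lie inside the gene, by 47, 615 and 20708 bases. Capitals mark every CACGTG.

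TCIRG1 (chr11:68038775-68039074, + strand): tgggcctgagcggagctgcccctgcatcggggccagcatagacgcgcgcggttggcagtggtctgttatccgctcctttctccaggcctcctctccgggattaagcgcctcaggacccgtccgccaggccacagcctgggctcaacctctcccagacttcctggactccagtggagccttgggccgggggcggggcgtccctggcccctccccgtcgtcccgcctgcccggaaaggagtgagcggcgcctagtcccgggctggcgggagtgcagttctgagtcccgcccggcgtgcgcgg
FUCA1 (chr1:23868241-23868540, - strand): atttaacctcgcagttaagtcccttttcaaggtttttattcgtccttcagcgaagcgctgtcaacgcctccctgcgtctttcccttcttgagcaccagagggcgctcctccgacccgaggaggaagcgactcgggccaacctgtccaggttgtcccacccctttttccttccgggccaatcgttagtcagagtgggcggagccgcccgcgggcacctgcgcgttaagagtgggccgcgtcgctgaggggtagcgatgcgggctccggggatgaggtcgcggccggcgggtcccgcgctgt
NPC2 (chr14:74493463-74493762, - strand): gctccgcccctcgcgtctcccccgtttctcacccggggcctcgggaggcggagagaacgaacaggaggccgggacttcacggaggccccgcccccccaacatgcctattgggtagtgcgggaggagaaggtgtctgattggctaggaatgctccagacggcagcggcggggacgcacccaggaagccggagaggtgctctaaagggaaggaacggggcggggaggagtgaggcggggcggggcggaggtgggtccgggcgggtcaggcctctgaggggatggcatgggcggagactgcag
CD63 (chr12:55729992-55730291, - strand): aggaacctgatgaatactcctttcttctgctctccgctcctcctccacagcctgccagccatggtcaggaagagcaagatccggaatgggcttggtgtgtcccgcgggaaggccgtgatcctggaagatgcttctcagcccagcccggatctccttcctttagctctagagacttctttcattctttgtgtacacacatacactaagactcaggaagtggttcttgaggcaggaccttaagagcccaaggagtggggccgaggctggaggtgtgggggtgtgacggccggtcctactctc
LAMP1 (chr13:113296989-113297288, + strand): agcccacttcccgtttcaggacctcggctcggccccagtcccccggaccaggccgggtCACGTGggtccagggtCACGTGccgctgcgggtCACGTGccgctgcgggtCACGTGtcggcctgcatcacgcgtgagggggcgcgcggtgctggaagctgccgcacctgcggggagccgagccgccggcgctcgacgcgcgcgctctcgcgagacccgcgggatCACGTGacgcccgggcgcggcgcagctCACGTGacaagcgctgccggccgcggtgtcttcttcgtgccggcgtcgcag
GAA (chr17:80101331-80101630, + strand): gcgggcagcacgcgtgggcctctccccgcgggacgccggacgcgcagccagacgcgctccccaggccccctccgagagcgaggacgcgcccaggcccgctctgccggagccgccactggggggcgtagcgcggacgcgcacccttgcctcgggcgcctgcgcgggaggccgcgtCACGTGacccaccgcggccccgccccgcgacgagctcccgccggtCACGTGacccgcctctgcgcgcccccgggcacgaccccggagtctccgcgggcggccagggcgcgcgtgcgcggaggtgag

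The core CACGTG, which reads the same on both strands, was in 8 of the 31 member windows (25.8%) and in 7.4% of 27305 windows, 1 per gene. The longer TCACGTGA, which contains it, was in 5 member windows (16.1%) and in 1.02% of all windows. The windows with TCACGTGA were those of LAMP1, GAA, CLN3, ATP6V0D1 and MCOLN1, and the LAMP1 window held 6 copies of the core. None of the 4 printed windows of genes that rose held CACGTG, against 7 of the 23 windows of the other tested members. These are matches of letters in 1 window per gene and say nothing about binding. TFEB itself, the factor that reads such sites, had signals of 6.56 to 26.5 and lay at or under 20 on 13 of 14 arrays.

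The targeted gene was checked first. The brightest probe set of RUNX1T1, the fusion partner, had signals of 318, 328 and 251 with AML1-ETO siRNA by nucleofection, against 645 and 763 with luciferase siRNA. By lipid the signals were 400, 426 and 502 with AML1-ETO siRNA, against 540, 560 and 567 with luciferase siRNA. The arrays did not overlap by either method. With p-values adjusted over the 4 probe sets of the gene, the difference was −1.24 by nucleofection (limma adjusted p = 8.14e-05), while that by lipid, −0.34 (SE 0.13, limma adjusted p = 0.063), did not pass. For this probe set nucleofection minus lipid was −0.90 (limma adjusted p = 0.00589). A dimmer probe set of the gene passed by lipid too, at −0.73 (limma adjusted p = 0.00936), and its nucleofection minus lipid, −0.37, did not pass (limma adjusted p = 0.234). Another of the 4 probe sets did not pass by nucleofection, at −0.35 (limma adjusted p = 0.107), while the rest passed. On the array without siRNA the brightest probe set was at 582, and in untransfected cells at 619 and 514.

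Array quality and cell identity were looked at before the members. In bulk RNA, fewer cells expressing a gene and less of its RNA per cell cannot be told apart. Between 38.4% and 44.3% of probe sets lay at or under a signal of 20 on each array. The log2 ratio of the 3' to the 5' GAPDH probe set, which rises when RNA or labelled target is shortened, was 0.25 and 0.03 on the 2 luciferase nucleofection arrays and between −0.38 and −0.04 on the other 12. The same ratio for ACTB was 0.84 and 0.38 on those 2 arrays and 0.29 to 0.66 on the other 12, so that by ACTB replicate 1 alone stood apart. Those 2 arrays enter 5 of the 10 comparisons below, and the part of this ratio in the results was not tested. The line's markers KIT (1617 to 2297) and MPO (4784 to 7572) were bright on every array, whereas ANPEP was under 20 on all 14. The 4 measured markers of the line summed to 9210 to 9350 with AML1-ETO siRNA by nucleofection, against 7650 to 8360 with luciferase siRNA. Most of each sum was MPO, with means of 7311 and 5922, at 0.30 (limma adjusted p = 0.419) for this contrast. KIT, at −0.08, and CD34, at −0.39, went the other way, and none passed. CD34 was at 29.1 to 51.0 with AML1-ETO siRNA by nucleofection, against 73.7 and 74.5 in untransfected cells. That difference was −0.999 (limma adjusted p = 0.0156). On the other nucleofected arrays CD34 was also under both untransfected arrays, at 42.5 and 55.6 with luciferase siRNA and 50.4 without siRNA. The luciferase nucleofection difference from untransfected cells was −0.61 (limma adjusted p = 0.142). Of the 6 macrophage and monocyte markers measured, CD14 and MARCO were under 20 on all arrays, and the 6 summed to 69 to 113 with AML1-ETO siRNA by nucleofection, against 93 to 97 with luciferase siRNA. CSF1R, the receptor for a macrophage growth factor, was the marker of that list above 20 on every array, with 25.0, 70.6 and 48.4 with AML1-ETO siRNA by nucleofection, against 29.0 and 28.6 with luciferase siRNA. By lipid CSF1R had 51.0, 38.9 and 61.0 with AML1-ETO siRNA, against 34.8, 30.0 and 23.3 with luciferase siRNA. Its differences were 0.61 (SE 0.34) by nucleofection and 0.77 (SE 0.31) by lipid, and neither passed. EPCAM, an epithelial adhesion protein, had 120, 155 and 131 with AML1-ETO siRNA by nucleofection, against 84.3 and 94.5 with luciferase siRNA, 71.3 without siRNA and 267 and 219 in untransfected cells. EPCAM was at −1.44 (limma adjusted p = 0.00319) for luciferase nucleofection against untransfected cells and at −0.85 (limma adjusted p = 0.0182) for AML1-ETO nucleofection, while AML1-ETO against luciferase siRNA by nucleofection, 0.59, did not pass (limma adjusted p = 0.12). Among the other epithelial markers KRT5 went the other way, with means of 21.5 with AML1-ETO siRNA by nucleofection, 40.4 with luciferase siRNA and 25.7 in untransfected cells. KRT8 had means of 16.0, 12.3 and 33.9 in the same groups, and CDH1 was under 20 on all 14 arrays. The part of these markers in the results was not tested.

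With AML1-ETO siRNA by nucleofection, 5 lysosomal genes were higher than with luciferase siRNA: the pump subunit gene TCIRG1, the fucosidase gene FUCA1, the cholesterol carrier gene NPC2 and the membrane protein genes LAMP2 and CD63. The rises ran from 1.52-fold to 3.52-fold, and 0 members fell, where 0.989% of all genes were called lower. Differences are limma's, on log2 signals raised to a floor of 20, with p-values adjusted by Benjamini-Hochberg over all 7178 genes tested and called under 0.05. The 5 called members of 38 (13.2%) stand beside 1.63% of all genes called higher. The median difference was 0.24 over the members and −0.11 over all genes. By lipid 0 of 38 members were called in limma's test, beside 0.125% of all genes. There 3 of the 38 members had an unadjusted p below 0.05, as did 325 of all 7178 genes.

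TCIRG1 encodes the a3 subunit of the V0 sector, the form of the pump's membrane arm known from osteoclasts and secretory lysosomes. Its signals were 87.8, 74.3 and 67.1 with AML1-ETO siRNA by nucleofection, against 19.3 and 23.2 with luciferase siRNA. By lipid they were 60.8, 76.7 and 70.3 with AML1-ETO siRNA, against 64.5, 66.9 and 64.1 with luciferase siRNA. The array without siRNA gave 21.8 and the untransfected arrays 61.0 and 76.5. So the 2 luciferase nucleofection arrays and the array without siRNA were low, near the floor, and the other 11 arrays lay together between 60.8 and 87.8. The nucleofection difference was 1.82 (SE 0.17, limma adjusted p = 0.000101), 3.52-fold, and the lipid difference was 0.08 (SE 0.15, adjusted p = 0.999). Nucleofection exceeded lipid by 1.74 in this effect (SE 0.23, limma adjusted p = 0.0191). TCIRG1 was the 1 member called in that test of the difference, where 0.0557% of all genes were called higher. There 8 of 38 members had an unadjusted p below 0.05, as did 772 of all 7178 genes. The TCIRG1 call in that test was kept in 17 of 25 refits, each with another processing setting or without 1 array. It was lost with a floor of 64 and with a replicate block, and without AML1-ETO nucleofection replicate 1 or 2, either luciferase nucleofection array, or luciferase lipid replicate 2 or 3.

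FUCA1, which removes fucose from glycoproteins, had signals of 69.3, 93.7 and 91.9 with AML1-ETO siRNA by nucleofection, against 24.8 and 44.1 with luciferase siRNA. By lipid the arrays read 83.2, 94.3 and 106 with AML1-ETO siRNA, against 69.4, 82.4 and 71.9 with luciferase siRNA. No AML1-ETO array overlapped a luciferase array of the same method. The nucleofection difference was 1.35 (SE 0.23, limma adjusted p = 0.0111), and the lipid difference was 0.34 (SE 0.21, adjusted p = 0.999). On the array without siRNA FUCA1 was at 55.1, above both luciferase nucleofection arrays, and in untransfected cells at 63.2 and 69.1.

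NPC2, a soluble protein that carries cholesterol out of the lysosome's interior, had signals of 465, 506 and 422 with AML1-ETO siRNA by nucleofection, against 294 and 254 with luciferase siRNA. By lipid they were 629, 560 and 613 with AML1-ETO siRNA, against 553, 503 and 537 with luciferase siRNA. The array without siRNA read 271 and the untransfected arrays 598 and 564. All nucleofection arrays were thus under all lipid arrays except that 506 stood above the lowest luciferase lipid array. The nucleofection difference was 0.76 (SE 0.15, limma adjusted p = 0.0197), and the lipid difference was 0.18 (SE 0.13, adjusted p = 0.999).

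LAMP2, a major glycoprotein of the lysosomal membrane that also serves in autophagy, had signals of 187, 166 and 169 with AML1-ETO siRNA by nucleofection, against 104 and 102 with luciferase siRNA. By lipid the signals were 245, 207 and 249 with AML1-ETO siRNA, against 167, 173 and 182 with luciferase siRNA. The groups were apart by both methods. The nucleofection difference was 0.76 (SE 0.15, limma adjusted p = 0.0217), and the lipid difference of 0.42 (SE 0.13) had the smallest p of any member by lipid without passing (adjusted p = 0.657). Its 2 dimmer probe sets differed by 0.52 and 0.63 by nucleofection, in the same direction. On the array without siRNA LAMP2 was at 96.6, and in untransfected cells at 208 and 177.

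CD63, a tetraspanin of lysosomes and granules, had signals of 1184, 1290 and 1293 with AML1-ETO siRNA by nucleofection, against 794 and 864 with luciferase siRNA. By lipid it had 1516, 1227 and 1384 with AML1-ETO siRNA, against 1333, 1212 and 1308 with luciferase siRNA, and these overlap. The nucleofection difference was 0.60 (SE 0.15, limma adjusted p = 0.0497), just inside the threshold and kept in 12 of 26 refits, and by lipid it was 0.10 (SE 0.13, adjusted p = 0.999). The array without siRNA was at 809, and the untransfected arrays at 1440 and 1326.

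**Figure D1:**
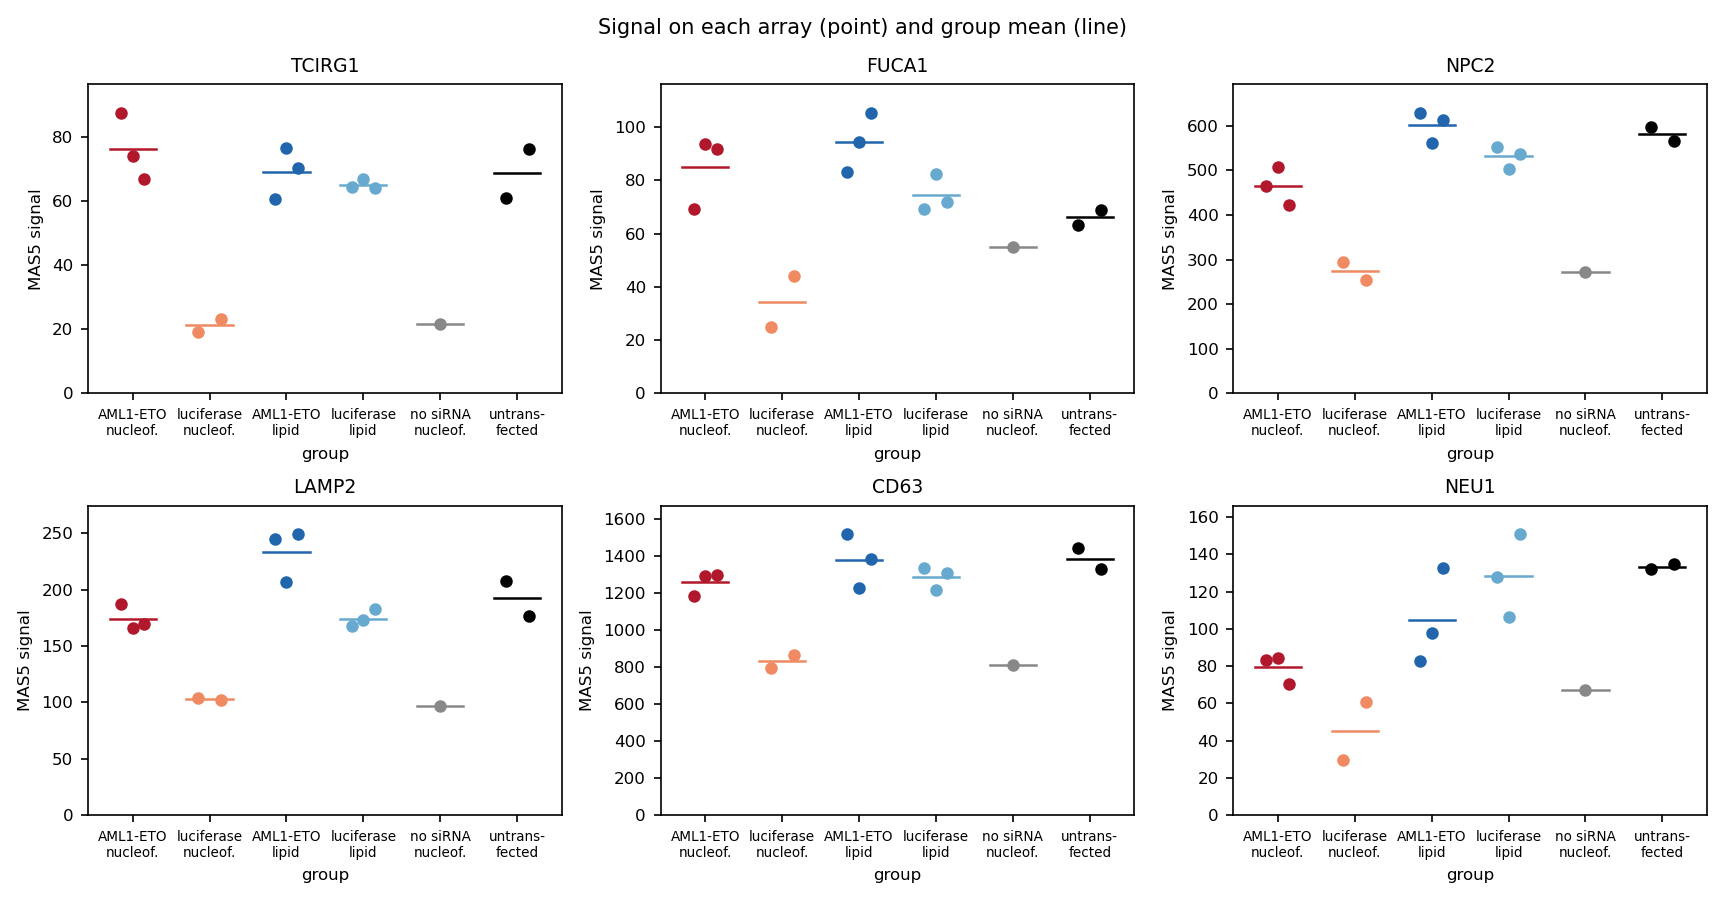
MAS5 signal (vertical axis, linear, from 0) on each array (points) and the group mean (line) for TCIRG1, FUCA1, NPC2, LAMP2, CD63 and NEU1, in the 6 groups along the horizontal axis. The 2 luciferase nucleofection arrays were below the 3 AML1-ETO nucleofection arrays in all 6 panels, and TCIRG1 stood at 21.8 on the array without siRNA, against 61.0 and 76.5 in untransfected cells.

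As the mean of both delivery methods, 4 members were called, all higher, beside 1.14% of all genes. They were TCIRG1 at 0.95 (SE 0.12), FUCA1 at 0.84 (SE 0.15), LAMP2 at 0.59 (SE 0.10) and NPC2 at 0.47 (SE 0.10), with limma adjusted p between 0.00112 and 0.0315. CD63 was not called. FUCA1, LAMP2 and NPC2 were the 3 members whose AML1-ETO arrays were all higher by lipid too, where 3.58% of all genes had that pattern. NAGLU, ATP6V1E1 and ATP6V1H had all AML1-ETO arrays lower by lipid, as did 4.95% of all genes.

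The 33 tested members that were not called by nucleofection included hydrolases and activators with differences of similar size. By nucleofection 15 members (39.5%) had all AML1-ETO arrays above both luciferase arrays, a pattern seen in 12.0% of all genes, and 3 members (IDS, ATP6V1B2 and ATP6V1D) had all below, seen in 25.3%. Among those 15, HEXA, the alpha subunit of beta-hexosaminidase, was at 0.65 (limma adjusted p = 0.0956), the sialidase NEU1 at 0.90 (adjusted p = 0.113) and PSAP, the precursor of the saposin activators, at 0.60 (adjusted p = 0.129). The tripeptidyl peptidase TPP1 was at 0.53 (limma adjusted p = 0.141) and its 2 other detected probe sets were at 0.66 and 0.54. MANBA, a mannosidase, was at 0.46, GM2A, the activator that presents GM2 ganglioside to hexosaminidase, at 0.45, and the acid ceramidase ASAH1 at 0.44, where its other probe sets were at 0.63 and −0.45. All of these p-values are limma's and none passed. The iduronidase IDUA was at 0.88 (limma adjusted p = 0.175), but 1 of its luciferase arrays read 7.48 and the other 52.7.

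Among the rest, IDS, the iduronate sulfatase, was at −0.79 (limma adjusted p = 0.174) by nucleofection, with signals of 21.7, 22.5 and 24.5 with AML1-ETO siRNA, against 47.5 and 33.0 with luciferase siRNA, close to the floor. LAMP1, the close relative of LAMP2, was at −0.08, while its 2 dimmer probe sets were at 0.51 and 0.21, so that its probe sets disagree. SCARB2, a carrier of the enzyme glucocerebrosidase, was at 0.25, NPC1, the membrane partner of NPC2, at 0.24, and CLN3 at −0.01, where its dimmer probe set was at 0.55. GLA, LIPA, GAA, SMPD1, MAN2B1, PPT1 and GUSB lay between 0.14 and 0.27, and ARSB and NAGLU at −0.08 and −0.30. MCOLN1, the lysosomal calcium channel, and the peptidase LGMN were under 20 on all 14 arrays, ARSA ran from 6.59 to 41.4, and these and TFEB were not tested.

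Apart from TCIRG1, 0 of the 11 other pump genes were called by nucleofection in limma's test, beside 1.63% of all genes called higher and 0.989% lower. The 12 pump genes tested had a median difference of −0.04 by nucleofection, against 0.26 for the other 26 members, and without TCIRG1 the 11 remaining pump genes ran from −0.42 to 0.25. ATP6V0D1, a V0 subunit, had 371, 384 and 368 with AML1-ETO siRNA by nucleofection, against 345 and 347 with luciferase siRNA, a difference of 0.11 (SE 0.16). ATP6V0B, a ring subunit, was at −0.04 and ATP6V1A, the catalytic subunit of V1, at 0.25. ATP6V1B2, the other nucleotide-binding subunit of V1, was lowest at −0.42, with signals of 158, 144 and 90.2 with AML1-ETO siRNA, against 168 and 172 with luciferase siRNA. None of these passed, and the split of pump and other members is a description with no test.

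**Figure D2:**
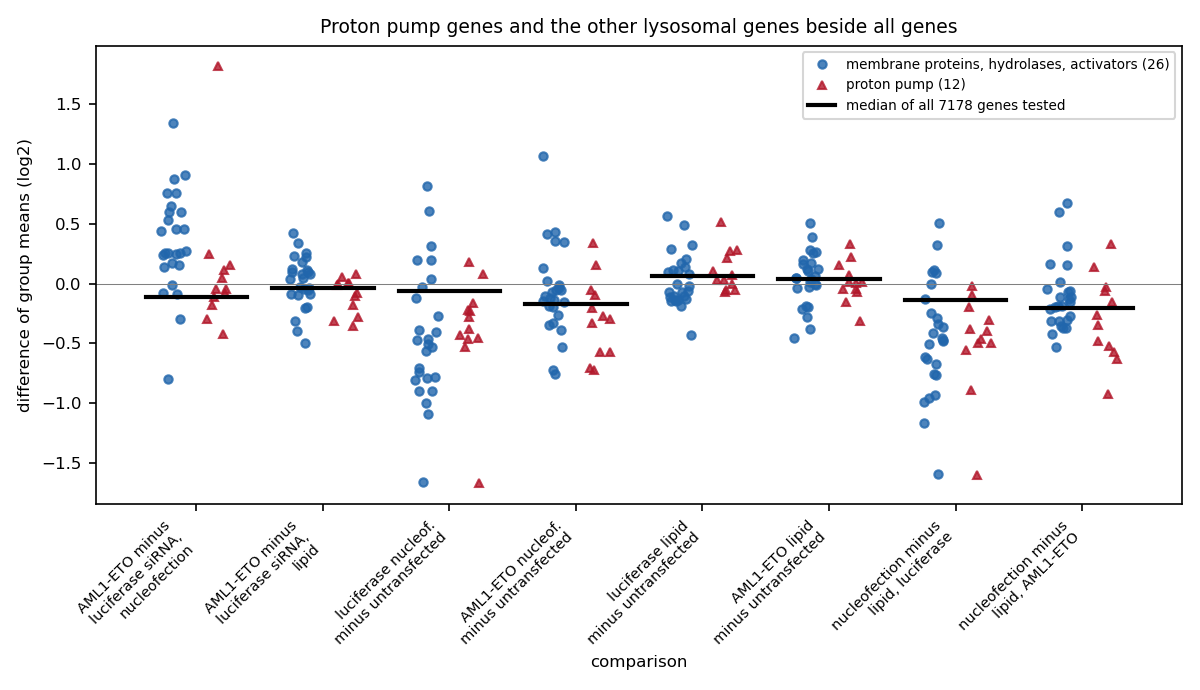
Difference of group means in log2 units (vertical axis) for each tested member in 8 comparisons (horizontal axis), as blue circles for 26 membrane protein, hydrolase and activator genes and red triangles for 12 proton pump genes, with black bars at the median of all 7178 genes. For AML1-ETO against luciferase siRNA by nucleofection the circles centre on 0.26 and the triangles on −0.04 apart from TCIRG1 at 1.82, and the all-gene median is −0.11.

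Each nucleofected group was then set against untransfected cells. The 2 luciferase nucleofection arrays are used both here and in the comparison above, so the 2 sets of differences are not independent. With luciferase siRNA by nucleofection, 9 members were lower than in untransfected cells and 0 were higher, that is 23.7% of the 38 lower, where 3.9% of all genes were called lower and 1.24% higher. They were TCIRG1, NPC2, LAMP2, CD63 and FUCA1 together with the glycosidase genes NEU1, MAN2B1 and MANBA and the peptidase gene TPP1. The median was −0.44 over the members and −0.06 over all genes. All luciferase arrays were under both untransfected arrays for 26 members (68.4%), a pattern in 32.3% of all genes, and above both for 4 (10.5%, against 22.0% of all genes).

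TCIRG1 was at −1.66 (SE 0.19, limma adjusted p = 0.000842), and its luciferase nucleofection signals lay near the floor, so this size is understated. NEU1, which removes sialic acid, had signals of 29.4 and 60.8 with luciferase siRNA by nucleofection, against 132 and 135 in untransfected cells. Its difference was −1.66 (SE 0.31, limma adjusted p = 0.0114), and 83.4, 84.2 and 70.6 were measured with AML1-ETO siRNA by nucleofection. NEU1 was therefore lower on all nucleofected arrays than on either untransfected array. NPC2 was at −1.09 (SE 0.16, limma adjusted p = 0.00378), FUCA1 at −0.997 (SE 0.25, adjusted p = 0.0401), LAMP2 at −0.90 (SE 0.16, adjusted p = 0.00993) and CD63 at −0.74 (SE 0.16, adjusted p = 0.0211). The calls of FUCA1 and MAN2B1 in this comparison were each kept in 14 of 26 refits. That of LAMP2 was kept in 22 of 26, and its difference ran from −1.09 to −0.31 over the refits.

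MAN2B1, an alpha-mannosidase, had 338 and 380 with luciferase siRNA by nucleofection, against 710 and 626 in untransfected cells, a difference of −0.90 (SE 0.23, limma adjusted p = 0.0401). MANBA, the beta-mannosidase, had 87.2 and 94.8 with luciferase siRNA by nucleofection, against 136 and 186 in untransfected cells, and was at −0.80 (SE 0.18, limma adjusted p = 0.026). TPP1 had 166 and 194 with the same siRNA, against 326 and 295 in untransfected cells, and was at −0.79 (SE 0.20, limma adjusted p = 0.0371). In each of these the groups were apart. The 2 other detected TPP1 probe sets were at −1.05 and −0.40.

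The same genes were read with AML1-ETO siRNA by nucleofection against untransfected cells, a comparison that uses no luciferase array. There TCIRG1 was at 0.15 (SE 0.17), FUCA1 at 0.35 (SE 0.23), LAMP2 at −0.14 (SE 0.15), CD63 at −0.14 (SE 0.15) and NPC2 at −0.33 (SE 0.15), and none passed. NEU1 was at −0.75 (SE 0.28, limma adjusted p = 0.115). In this comparison 3 members were lower, beside 6.42% of all genes, and 1 was higher, beside 1.73%. Of these 4, MAN2B1 was at −0.72 (SE 0.21, limma adjusted p = 0.0495), with 465, 455 and 311 measured with AML1-ETO siRNA, and this call was kept in 7 of 26 refits. The median of the members, −0.14, was close to that of all genes, −0.17. All arrays were lower for 15 members (39.5%, against 33.4% of all genes) and higher for 5 (13.2%, against 10.8%).

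The other members that differed there belong to the pump and to sphingolipid breakdown. ATP6V0C, the proton-carrying ring subunit of V0, had signals of 227, 208 and 259 with AML1-ETO siRNA by nucleofection, against 373 and 388 in untransfected cells, at −0.72 (SE 0.18, limma adjusted p = 0.0333). Its dimmer probe set gave 0.00 for the same contrast, so the 2 probe sets of ATP6V0C disagree. ATP6V1H, a regulatory subunit of V1, had 70.5, 82.5 and 72.0 with AML1-ETO siRNA by nucleofection, against 122 and 102 in untransfected cells, at −0.57 (SE 0.15, limma adjusted p = 0.0397). SMPD1, acid sphingomyelinase, was higher, at 1.07 (SE 0.22, limma adjusted p = 0.0146), with 44.6, 33.6 and 49.0 with AML1-ETO siRNA, against 14.9 and 8.0 in untransfected cells. Both untransfected arrays of this SMPD1 probe set were under the floor of 20, so that by this probe set it was at least 2.09-fold higher. The gene has 4 probe sets, and with the median of probe sets 0 members were called higher here, beside 120 of all genes. The SMPD1 call was kept in 21 of 25 refits. Nucleofection without siRNA gave 44.5 and luciferase siRNA by nucleofection 34.4 and 35.9 for SMPD1, which were also above both untransfected arrays. The lipid arrays were above both as well, at 26.6, 29.0 and 23.4 with AML1-ETO siRNA and 22.6, 25.6 and 38.1 with luciferase siRNA.

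The single array nucleofected without siRNA gives the members with delivery but no siRNA, with no replicate and so with no test. For 28 of 38 members (73.7%) it lay under both untransfected arrays, a pattern in 50.8% of all genes, and above both for 6 (15.8%, against 27.0%). TCIRG1 was at −1.65 relative to the untransfected mean, NPC2 at −1.10, LAMP2 at −0.99, NEU1 at −0.99, MAN2B1 at −0.96, TPP1 at −0.78 and CD63 at −0.77, and FUCA1 at −0.26. The median over the members was −0.35, against −0.14 over all genes. Against the mean of the luciferase nucleofection arrays its median over the members was −0.03, with TCIRG1 at 0.02 and NPC2 at −0.01, while FUCA1 was at 0.74 and NEU1 at 0.67. When this array was pooled with the luciferase nucleofection arrays, a choice made after seeing the data, 6 members rose with AML1-ETO siRNA by nucleofection. These were the 5 above and HEXA at 0.66 (SE 0.17, limma adjusted p = 0.0446). Of all genes 160 were called higher in that fit, in place of 117.

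Lipid delivery left the members near untransfected cells. For luciferase siRNA by lipid against untransfected cells limma called 0 members and 0.0% of all genes, and the members' median was 0.02. There 2 members had an unadjusted p below 0.05, as did 267 of all genes. For AML1-ETO siRNA by lipid limma called 0 members and 0.111% of all genes, and the members' median was 0.03. Again 2 members had an unadjusted p below 0.05, as did 419 of all genes. The largest differences were those of NAGLU at 0.56 with luciferase siRNA and FUCA1 at 0.51 with AML1-ETO siRNA, neither of which passed.

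**Figure D3:**
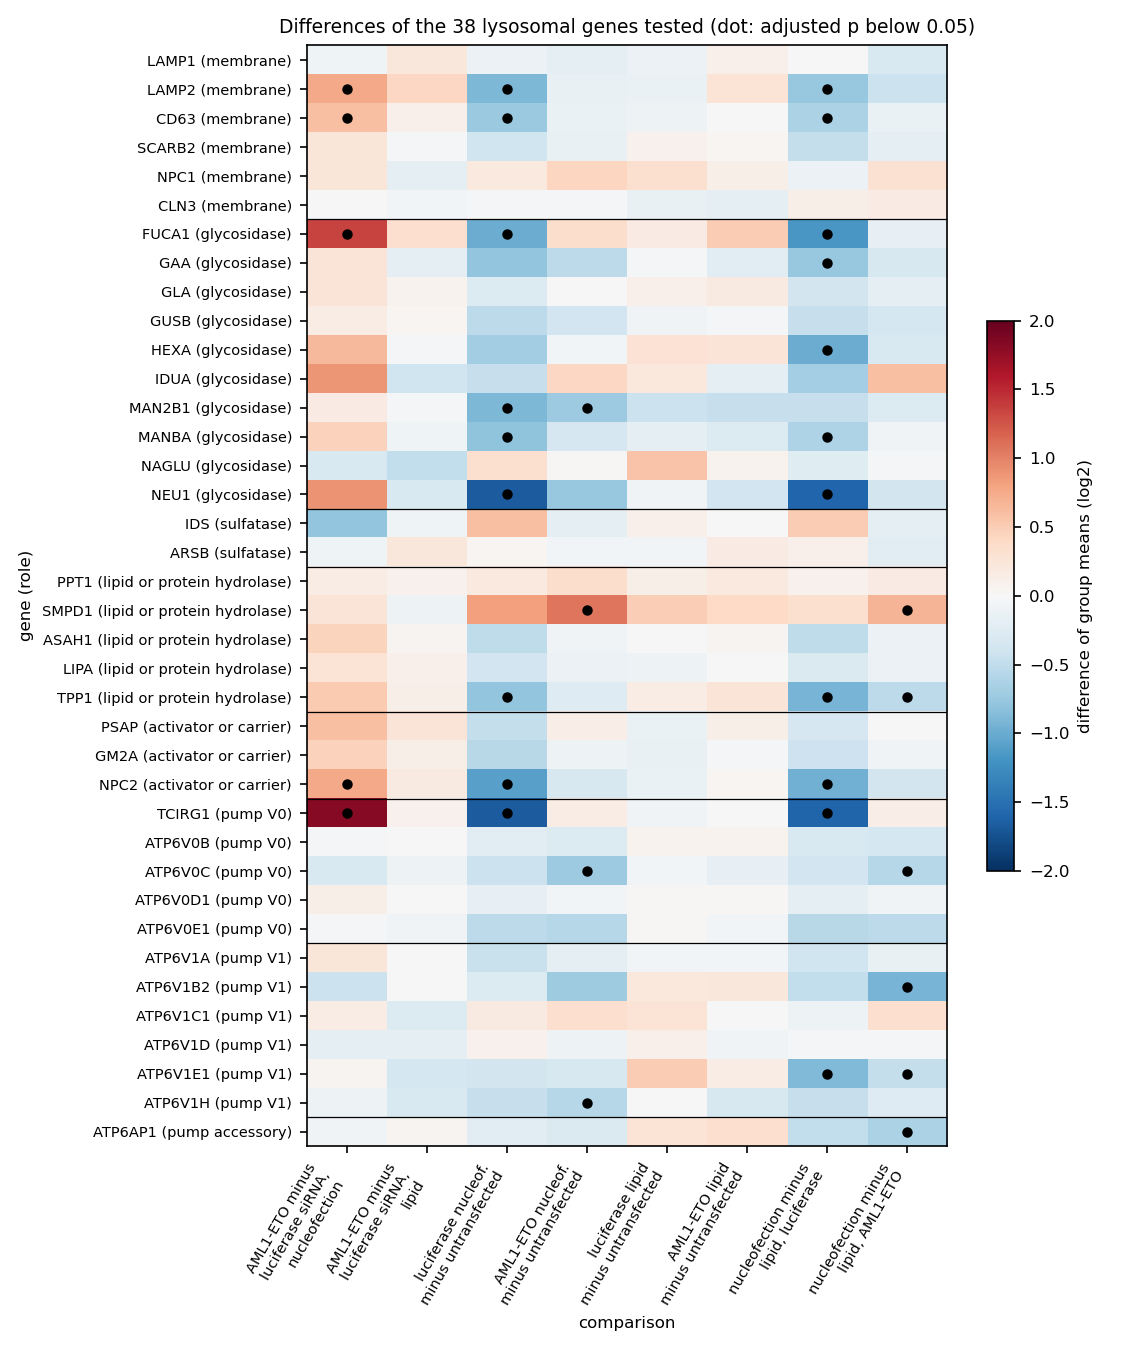
Differences of group means (colour, log2 units, red higher and blue lower in the group named first) for the 38 tested members, in rows by role, across 8 comparisons in columns, with a black dot where the adjusted p was below 0.05. The dotted cells of TCIRG1, FUCA1, NPC2, LAMP2 and CD63 are red for AML1-ETO against luciferase siRNA by nucleofection and blue for luciferase nucleofection against untransfected cells, and the columns of lipid against untransfected cells hold 0 dots.

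Delivery was also compared directly within each siRNA. With luciferase siRNA 11 members were lower by nucleofection than by lipid and 0 were higher, 28.9% of members lower, where 7.04% of all genes were called lower and 1.13% higher. The median was −0.46 over members and −0.14 over all genes, and all 27 members whose arrays were apart were lower by nucleofection (71.1%, against 33.4% of all genes), and 0 were higher, against 12.0% of all genes. Besides TCIRG1 (−1.60), NEU1 (−1.59), FUCA1 (−1.17), NPC2 (−0.96), TPP1 (−0.93), LAMP2 (−0.76), CD63 (−0.63) and MANBA (−0.61), these were HEXA, ATP6V1E1 and GAA. HEXA had 182 and 161 by nucleofection, against 367, 352 and 305 by lipid, at −0.99 (SE 0.19, limma adjusted p = 0.00882). GAA, the acid glucosidase of glycogen breakdown, had 227 and 191 by nucleofection, against 384, 319 and 358 by lipid, at −0.76 (SE 0.20, limma adjusted p = 0.037). ATP6V1E1, a stalk subunit of V1, had 162 and 186 by nucleofection, against 339, 283 and 346 by lipid, at −0.89 (SE 0.15, limma adjusted p = 0.0052). The luciferase nucleofection arrays were below all luciferase lipid arrays for these 3 genes. The LAMP2 call in this comparison was kept in 23 of 26 refits, with differences from −0.81 to −0.12.

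With AML1-ETO siRNA, 6 members were called for nucleofection against lipid, 4 of them pump genes, and TPP1 and ATP6V1E1 were lower with either siRNA. In all 5 members (13.2%) were lower, beside 11.6% of all genes, and 1 was higher, beside 1.81%, so the share called lower was near that of all genes. All nucleofection arrays were lower for 13 members (34.2%, against 28.1% of all genes) and higher for 2 (5.26%, against 5.29%). ATP6V1B2 had 158, 144 and 90.2 by nucleofection, against 216, 235 and 275 by lipid, at −0.92 (SE 0.19, limma adjusted p = 0.0108). ATP6AP1, an accessory subunit of the pump, had 223, 260 and 235 by nucleofection, against 374, 329 and 409 by lipid, at −0.63 (SE 0.15, limma adjusted p = 0.0181). ATP6V0C was at −0.57 (SE 0.17, limma adjusted p = 0.0403), TPP1 at −0.53 (SE 0.16, adjusted p = 0.0473) and ATP6V1E1 at −0.48 (SE 0.14, adjusted p = 0.0368). SMPD1 was higher at 0.67 (SE 0.20, limma adjusted p = 0.0433), and this sign turned with the median of its probe sets, at −0.15. The calls of SMPD1, TPP1 and ATP6V0C in this comparison were kept in 6 of 25, 8 of 26 and 12 of 26 refits. TCIRG1 was at 0.14 in this comparison.

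**Figure D4:**
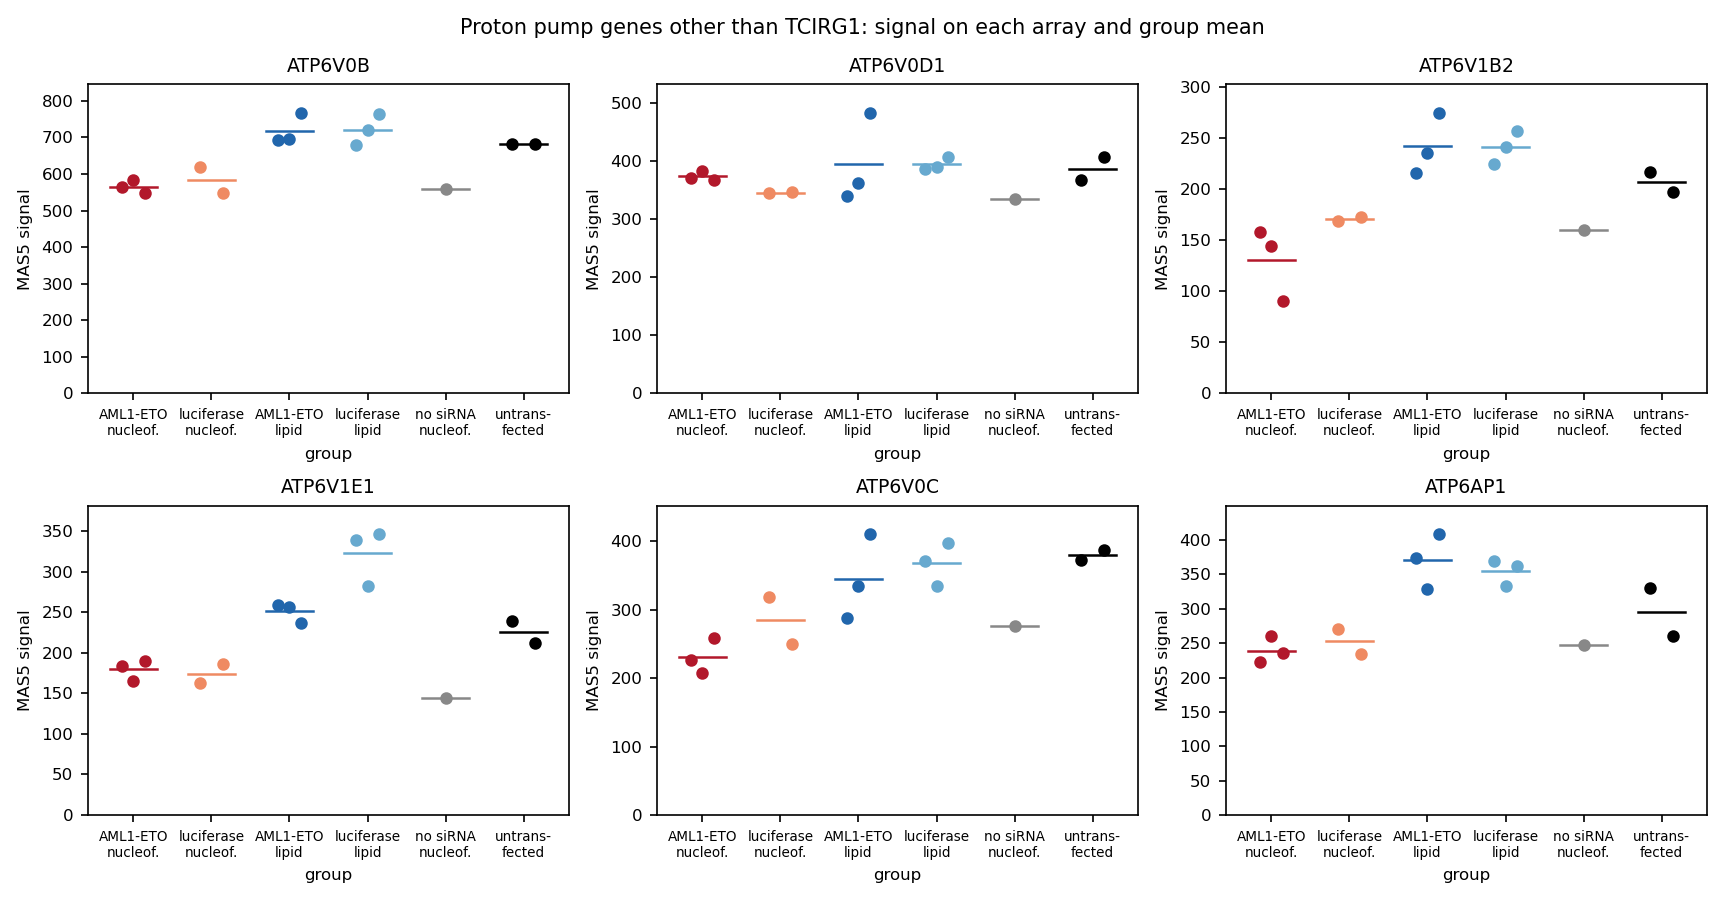
MAS5 signal (vertical axis, linear, from 0) on each array (points) and group mean (line) for 6 proton pump genes other than TCIRG1, in the 6 groups along the horizontal axis. ATP6V1B2, ATP6V1E1 and ATP6AP1 were lower on the nucleofected arrays with either siRNA than on the lipid arrays with the same siRNA, and ATP6V0D1 had 371, 384 and 368 with AML1-ETO siRNA by nucleofection, against 345 and 347 with luciferase siRNA.

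The scaling of the arrays bears on these last comparisons. Every array had been set by the authors to the same mean, and the median of all genes still differed between delivery methods, by −0.20 with AML1-ETO siRNA. With quantile normalization that all-gene median was −0.03, the members' median was 0.00 and 1 member was called lower in place of 5. Of all genes 272 were then called lower, in place of 832. For AML1-ETO nucleofection against untransfected cells quantile normalization gave 2 members higher and 0 lower, in place of 1 higher and 3 lower. Over all genes it gave 178 higher and 172 lower, in place of 124 and 461. For luciferase nucleofection against untransfected cells it gave 7 members lower and 0 higher, and a members' median of −0.26 beside 0.01 for all genes. The all-gene counts there were 217 lower and 121 higher, in place of 280 and 89. For AML1-ETO against luciferase siRNA by nucleofection quantile normalization gave 8 members higher, and all 5 named above were among them. Of all genes 257 were called higher, in place of 117.

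Single arrays also carried weight, as the groups were small. The count of members called for AML1-ETO against luciferase siRNA by nucleofection was 2 without AML1-ETO nucleofection replicate 1 or luciferase nucleofection replicate 1. It was 3 without AML1-ETO nucleofection replicate 2 or 3 or luciferase nucleofection replicate 2. For luciferase nucleofection against untransfected cells the count of 9 became 3 without luciferase nucleofection replicate 1 or either untransfected array, and 4 without luciferase nucleofection replicate 2. For AML1-ETO nucleofection against untransfected cells it was 0 without either untransfected array. The counts over all genes fell too. In the first comparison 117 genes higher and 71 lower became 52 to 120 in all without 1 of the arrays named. In the second 89 higher and 280 lower became 56 to 156 in all, and in the third 124 higher and 461 lower became 102 and 166.

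Other genes of the pathway were followed in 5 lists beside the 44, with 54 genes tested. With AML1-ETO against luciferase siRNA by nucleofection, 1 of the 54 was called higher (1.85%), near the 1.63% of all genes. There 0 were called lower, beside 0.989% of all genes. For AML1-ETO against luciferase siRNA by nucleofection, 0 of 12 other hydrolases and transporters tested were called, with HYAL2, a hyaluronidase, at −0.69 (limma adjusted p = 0.0517), the sulfamidase SGSH at 0.96 (adjusted p = 0.0847), the acid phosphatase ACP2 at 0.65 (adjusted p = 0.0902) and the sulfatase GALNS at 0.94 (adjusted p = 0.144). Of 12 other membrane proteins, whose median was 0.19 beside −0.11 for all genes, 1 rose, LAPTM5, a lysosomal protein of blood cells, at 1.83 (SE 0.16, limma adjusted p = 4.4e-05). The chloride transporter CLCN7 was at 0.45, TMEM59 at 0.41 and LAPTM4B at −0.30, and these did not pass. Among 6 other pump genes 0 were called, ATP6V1G1 at −0.54 and ATP6AP2 at 0.67 having the smallest p. Of 13 genes that tag and carry enzymes to the lysosome 0 were called, with GNPTAB, which makes the mannose 6-phosphate tag, at −0.46, GGA1 at −0.43, the tag receptors M6PR at 0.37 and IGF2R at −0.39. Of 11 lysosomal transcription factors and docking genes of the mTORC1 kinase 0 were called, and TFE3, a relative of TFEB, was at 0.57, RRAGC at 0.35, RRAGA at −0.31 and MITF at −0.37. For luciferase nucleofection against untransfected cells 4 of these 54 genes were called (7.41%, beside 3.9% of all genes called lower), all lower: TMEM59 at −0.82, LAPTM4A, a small lysosomal membrane protein, at −0.82, GNPTAB at −0.62 and LAMTOR5, a docking subunit for mTORC1, at −0.89. For AML1-ETO nucleofection against untransfected cells 5 were lower (9.26%, beside 6.42% of all genes) and 1 higher (1.85%, beside 1.73%). For nucleofection minus lipid 6 were lower with luciferase siRNA (11.1%, beside 7.04% of all genes). With AML1-ETO siRNA 6 were lower (11.1%, beside 11.6%) and 2 higher (3.7%, beside 1.81%).

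Over the 10 comparisons 17 of the 38 tested members were called at least once and 21 in none. These 21 were LAMP1, SCARB2, NPC1 and CLN3 among membrane proteins, GLA, GUSB, IDUA, NAGLU, IDS, ARSB, PPT1, ASAH1 and LIPA among hydrolases, the activators PSAP and GM2A, and the pump genes ATP6V0B, ATP6V0D1, ATP6V0E1, ATP6V1A, ATP6V1C1 and ATP6V1D. PSAP had 1970, 2259 and 1629 with AML1-ETO siRNA by nucleofection, against 1550 and 1052 with luciferase siRNA.

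The genes whose log2 signals followed TCIRG1 most closely over the 14 arrays were S100A4 (Pearson's r = 0.961), NREP (0.955), SLC75A1 (0.926), ARHGDIB (0.925) and OXA1L (0.922), out of 7177 compared. The 14 points share their group structure, and these are given as a description.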

How the data were processed

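Expression was measured in 14 Kasumi-1 samples on single-colour arrays of 22283 probe sets. The deposited values are linear signal intensities that the authors made with MAS5, per the submitters' processing notes, whose version and scaling target are not given in the sources used here; every array had the same mean intensity of 138.5, so total signal says nothing of RNA amount, and the number of arrays limits precision. Of the probe sets 19065 carried 1 gene symbol in the platform annotation, 1043 several, 2107 none and 68 were controls, and only the first kind was used. Probe sets may cross-hybridise with similar transcripts.

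A floor of 20 was set before taking log2. A single probe set stood for each of 11963 genes, the brightest on average, and those 7178 genes in the upper 60% by mean were fitted with lmFit and eBayes in limma 3.58.1 (R 4.3.3) on all 14 arrays with 1 mean per group, 8 residual degrees of freedom and Benjamini-Hochberg adjustment. The fit was tested on simulated data. Figures and summaries used Python 3.11.15, pandas 2.3.3, numpy 2.4.6 and matplotlib 3.10.9. Groups came from the labels, and 10 comparisons were made. The members and the other gene lists were chosen with earlier results of these data known. Values on each array are given for members called in any of the 10 comparisons, and other members by differences and counts. From each other list up to 4 genes with the smallest p by nucleofection are named. Alternatives were floors, filters, scalings, probe set rules, the variance model, the arrays fitted, the replicate number and each array left out.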

Additional observations from a re-analysis of the deposited data

Results flagged for a closer look

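The difference between AML1-ETO and luciferase siRNA for TCIRG1 was larger by nucleofection than by lipid, by 1.735 on the log2 scale (SE 0.23, limma adjusted p = 0.0191 over 7178 genes). The difference was 1.82 by nucleofection and 0.08 by lipid, with all 3 AML1-ETO nucleofection arrays above both luciferase nucleofection arrays. The call was kept in 17 of 25 refits and lost with a floor of 64, with a replicate block and without each of 6 single arrays in turn, with adjusted p between 0.0044 and 0.974 over the refits. The siRNA dose also differed, at 1.5 µM by nucleofection and 240 nM by lipid, so that dose and delivery cannot be told apart.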

How the results depend on the processing

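All 10 comparisons were refitted under 26 alternatives, 14 of which left out 1 array each. Of 1033 values of called members under these, 780 kept their direction and stayed past the threshold, 252 kept direction without passing or stood at 0, and 1 reversed, SMPD1 for nucleofection minus lipid with AML1-ETO siRNA, at −0.148 with the median of probe sets. The RUNX1T1 knockdown check by nucleofection stayed between −1.36 and −1.12 and past the threshold in all 17 of its refits.

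Counts of members called that moved by over 1.5 times were as follows, and the cause was not tested. For AML1-ETO against luciferase siRNA by nucleofection, 5 became 3 with a floor of 64, 8 with quantile normalization and 1 when only the groups compared were fitted. Over all genes 210, 373 and 23 were called in the same refits. The test of nucleofection minus lipid in this effect called 0 with a floor of 64 and with the upper 40% of genes. In the latter TCIRG1 was not among the genes tested. Those refits called 32 and 8 of all genes. For AML1-ETO nucleofection against untransfected cells, 4 became 2 with a floor of 64, with quantile normalization or with the median of probe sets. The count became 1 with only the groups compared. In that order the refits called 533, 350, 642 and 187 of all genes. For luciferase nucleofection against untransfected cells, 9 became 15 with arrays centred on medians and 0 with only the groups compared, where fewer arrays estimate the spread. Over all genes 890 and 0 were called in the same refits. For nucleofection minus lipid with only the groups compared, 11 became 7 with luciferase siRNA and 6 became 0 with AML1-ETO siRNA. The 6 became 1 with quantile normalization and 2 with centring. In that order these refits called 360, 331, 503 and 682 of all genes.

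With a replicate block the counts were 3 for AML1-ETO against luciferase siRNA by nucleofection and 0 for its difference from lipid. They were 5 for luciferase and 1 for AML1-ETO nucleofection against untransfected cells, and 3 for nucleofection minus lipid with AML1-ETO siRNA. In the same order 108, 2, 133, 312 and 692 of all genes were called. Of 22 same-numbered pairs of arrays 0 had a correlation of deviations over 0.1 (median −0.001). The deviations are from means of only 2 or 3 arrays, so this cannot settle whether same-numbered arrays were handled together.

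Leaving out 1 array at a time gave 2 to 5 members for AML1-ETO against luciferase siRNA by nucleofection and 2 to 5 for the mean of both methods (2 without luciferase nucleofection replicate 1). It gave 0 to 1 for the difference between methods, 3 to 10 for luciferase and 0 to 4 for AML1-ETO nucleofection against untransfected cells. Nucleofection minus lipid had 4 to 11 with luciferase siRNA (4 and 6 without luciferase nucleofection replicate 1 and 2) and 1 to 6 with AML1-ETO siRNA. TCIRG1 lost its call in the difference between methods without AML1-ETO nucleofection replicate 1 or 2, either luciferase nucleofection array, or luciferase lipid replicate 2 or 3. Signals near 20 limit the size of changes in TCIRG1, SMPD1, IDS and NAGLU.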
